A study of Sus scrofa with 4 samples.

Results

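The MYC, MAX and MXD network was followed across granulosa cells of porcine antral follicles, the somatic cells that line the follicle and surround the oocyte. It was taken as 10 genes by name, of 29884 rows in the deposited count table: the activators MYC, MYCN and MYCL, their partner MAX, the antagonists MXD1, MXD3, MXD4, MXI1 and MNT, and MLXIP, which belongs to the parallel MLX branch. All 10 had enough counts to be tested, among 14352 tested genes in all. RNA had been sequenced from 2 libraries of ovarian granulosa cells with a high share of cells in G0/G1 by flow cytometry, called here high G0/G1, and 2 libraries with a low share, called low G0/G1. The labels state no treatment, age or breed. Whether different animals gave the libraries of a group is not stated there either, so a p-value here weighs a difference against the spread of these libraries, which could be purely technical.

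MYC proteins bind DNA as pairs with MAX, at the E-box sequence, and raise transcription of genes for growth and ribosome production. The MXD proteins, MXI1 and MNT compete for MAX and for the same sites, and they recruit SIN3 and histone deacetylases to lower transcription there. MLXIP, also called MondoA, pairs with MLX and responds to glucose metabolites. In many cell types MYC is high in dividing cells and MXD genes or MXI1 are high in cells that leave the cycle, and granulosa cells pass from growth to differentiation as the follicle matures.

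Library totals ran from 27442850 to 32674921 counts. The unit of a level is CPM, a gene's count as a rate per library size, where sizes were first adjusted for library composition by the trimmed mean of M values (TMM). Since longer transcripts collect more counts and no transcript lengths were used, levels are compared between libraries and not between genes. The granulosa markers FSHR, AMH, FOXL2 and INHA were counted in each library, and the 12 markers on that list summed to 17359 and 11455 CPM in high G0/G1 and 16184 and 14666 CPM in low G0/G1, with INHA the largest part of each sum. Of the 12, 7 lay lower in both high G0/G1 libraries than in both low ones, among them FSHR with 22.5 and 26.0 CPM in high G0/G1 against 81.5 and 85.8 CPM in low G0/G1, and 3 lay higher. Low replicate 2 stood apart in the sum of the markers of stroma and smooth muscle. These 9 genes summed to 90.0 and 122 CPM in high G0/G1 and to 44.5 and 1130 CPM in low G0/G1. COL3A1 and COL1A1 were the largest parts in low replicate 2, at 478 and 390 CPM. PDGFRA and MYH11 were instead highest in high replicate 2, at 18.6 and 5.37 CPM, against 6.17 and 3.67 CPM in low replicate 2. Of the 9, 0 were at 0 counts in all libraries. The 7 theca markers summed to 1096 and 399 CPM in high G0/G1 and 272 and 498 CPM in low G0/G1, of which LHCGR, a gene that granulosa cells also express, gave 1001 and 277 CPM against 148 and 95.5 CPM. Among the other theca markers low replicate 2 was again the highest library for INSL3 (17.6 and 30.0 CPM in high G0/G1 against 75.3 and 260 CPM in low G0/G1), for CYP17A1 (0.771 and 1.02 CPM against 0.125 and 51.5 CPM) and for STAR (9.62 and 1.33 CPM against 1.76 and 39.4 CPM). TCF21 was also highest there, at 1.91 CPM. NR2F2 went the other way, with 31.3 and 33.3 CPM in high G0/G1 against 27.0 and 25.9 CPM in low G0/G1. So did PTCH1, with 35.1 and 56.8 CPM against 19.3 and 23.6 CPM. The 7 endothelial markers summed to 17.1 and 48.2 CPM in high G0/G1 against 7.27 and 56.5 CPM in low G0/G1, and the 8 leukocyte markers to at most 4.99 CPM in any library. In bulk RNA, fewer cells of a type and less RNA per cell cannot be told apart.

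High and low G0/G1 libraries were compared to find genes whose level follows the share of cells that have not begun DNA synthesis. MYC itself, the best known activator, was not separated by it, while MYCN was lower in high G0/G1 and the antagonists MNT and MXI1 were higher. The antagonist MXD3 went the other way from MNT and MXI1. By edgeR's quasi-likelihood test with Benjamini-Hochberg adjustment over all genes, 0 of the 10 members passed an adjusted p of 0.05, as did 0% of all genes tested. At an unadjusted p under 0.05, 2 members were higher (MNT and MXI1) and 2 lower (MYCN and MXD3), where the background was 9.92% higher and 10.8% lower. DESeq2, a test that made many more calls on these counts, called MNT and MXI1 higher and MYCN lower, against 5.34% of all genes called higher and 5.05% called lower.

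Both high G0/G1 libraries lay above both low G0/G1 libraries for 5 members and below them for 3, with MYC and MYCL overlapping. Across all genes tested, 26.8% lay above and 29.8% below, 56.6% together. The median log2 fold change of the 10 members was 0.75, against -0.01 for all genes tested. That median was -0.09 without high replicate 2.

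**Figure D1:**
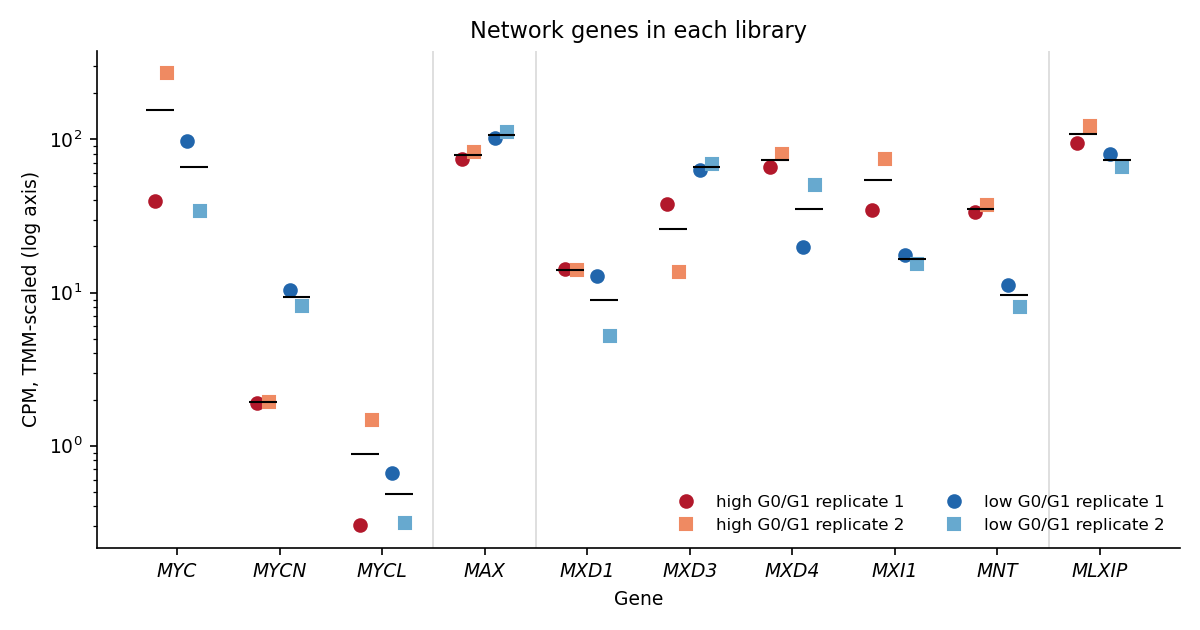
Level of each network gene in each library, in CPM on a log axis, with high G0/G1 libraries left of low G0/G1 libraries and black bars for the mean of 2 libraries. MYC spans 33.9 to 270 CPM with overlapping groups, while MNT and MXI1 lie higher and MYCN and MXD3 lower in both high G0/G1 libraries.

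MYC (chromosome 4, 12455141 to 12460360 in Sscrofa11.1) stood at 39.7 and 270 CPM in high G0/G1, against 97.6 and 33.9 CPM in low G0/G1. The highest library was high replicate 2, and the other high G0/G1 library lay between the low ones. Within high G0/G1 the libraries differed 6.82-fold, a log2 difference larger in size than that of 98.2% of all genes tested in the same pair. Low replicate 1 was 2.88-fold above low replicate 2, which put MYC at the 93.6th percentile for that pair. The log2 fold change was 1.24 ± 0.96 (SE; edgeR adjusted p = 0.496), with a 95% interval from -1.20 to 3.67. Without high replicate 2 it was -0.73, and without high replicate 1 it was 2.03, each with 1 high G0/G1 library. DESeq2 did not call MYC with all 4 libraries, at an adjusted p of 0.363.

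MYCN (chromosome 3, 121543201 to 121549678), the relative of MYC first known from neuroblastoma, had nearly the same level in both high G0/G1 libraries. It stood at 1.91 and 1.93 CPM in high G0/G1, from 57 and 55 counts, against 10.4 and 8.14 CPM in low G0/G1, from 333 and 235 counts. The groups did not overlap, and the exact Poisson intervals, which cover counting error only, reached no higher than 2.51 CPM in high G0/G1 and no lower than 7.14 CPM in low G0/G1. Its log2 fold change was -2.27 ± 0.40 (SE; edgeR adjusted p = 0.142; 95% interval -3.28 to -1.27), and with 1 library left out it ran from -2.43 to -2.02. DESeq2 called it lower (adjusted p = 7.7e-05), a call lost without low replicate 1 (adjusted p = 0.225) and without low replicate 2 (adjusted p = 0.0767). An annotated pseudogene overlaps the MYCN locus, and since the sources used here do not give the strand setting of the counting, reads from that pseudogene and from MYCN cannot be told apart.

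MYCL (chromosome 6, 95696086 to 95702627), the third MYC paralog, was close to the limit of these libraries. It had 9 and 42 counts in high G0/G1 and 21 and 9 counts in low G0/G1, or 0.302 and 1.47 CPM against 0.658 and 0.312 CPM. Its libraries fell in nearly the same order as those of MYC, with high replicate 2 on top and low replicate 1 next. The log2 fold change of 0.86 ± 0.96 (SE; edgeR adjusted p = 0.642) became -0.68 without high replicate 2. Of the counts of the MYC family, MYCN took 4.56% and 0.705% in high G0/G1 and 9.61% and 19.2% in low G0/G1. Their Wilson 95% intervals, which cover counting error only and not the spread between libraries, reached 5.87% at most in high G0/G1 and 8.67% at least in low G0/G1, and the shares also move with MYC, the larger part of each sum.

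MAX (chromosome 7, 89142966 to 89168265), the shared partner, had a narrow range over the 4 libraries. It stood at 74.2 and 83.01 CPM in high G0/G1, against 103 and 112 CPM in low G0/G1. The groups did not overlap, though the difference was small, at a log2 fold change of -0.45 ± 0.20 (SE; edgeR adjusted p = 0.271; 95% interval -0.95 to 0.05). Leaving out 1 library gave -0.53 to -0.37.

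MNT (chromosome 12, 48469230 to 48486737), an antagonist that in mouse is expressed in both resting and dividing cells, had the smallest p of the 10 members. It stood at 33.5 and 37.1 CPM in high G0/G1, against 11.3 and 8.08 CPM in low G0/G1. The high G0/G1 libraries were close to each other, while the low ones were 1.39-fold apart. The means were 35.3 ± 2.57 CPM in high G0/G1 and 9.67 ± 2.25 CPM in low G0/G1 (SD, n = 2 each). The log2 fold change was 1.87 ± 0.28 (SE; edgeR adjusted p = 0.127; 95% interval 1.16 to 2.58), or 3.65-fold higher, and ranked 108 among the 14352 genes by p. With 1 library left out it ran from 1.66 to 2.19. DESeq2 called it with all libraries (adjusted p = 1.4e-05) and not without low replicate 2 (adjusted p = 0.0999).

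MXI1 (chromosome 14, 120643691 to 120722632), an antagonist that hypoxia and FOXO factors induce in other mammalian cells, was higher in both high G0/G1 libraries but unequal between them. It stood at 34.6 and 74.3 CPM in high G0/G1, against 17.5 and 15.5 CPM in low G0/G1. High replicate 2 was 2.15-fold above high replicate 1, and the low G0/G1 libraries were nearly level. The log2 fold change of 1.73 ± 0.41 (SE; edgeR adjusted p = 0.169; 95% interval 0.68 to 2.77) was 1.07 without high replicate 2 and 2.17 without high replicate 1. DESeq2's call with all libraries (adjusted p = 0.00477) was lost without high replicate 2 (adjusted p = 0.104) and without either low library (adjusted p of 0.06995 without replicate 1 and 0.163 without replicate 2).

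MXD4 (chromosome 8, 1203163 to 1216807), an MXD gene widely expressed in differentiated tissue, and MXD1 (chromosome 3, 72517829 to 72545302), an MXD gene induced when myeloid cells differentiate, had even values in high G0/G1 and a wide spread in low G0/G1. For MXD4 the values were 65.6 and 80.3 CPM in high G0/G1 against 19.8 and 50.2 CPM in low G0/G1. MXD1 had 14.1 and 14.0 CPM in high G0/G1 against 12.7 and 5.20 CPM in low G0/G1. Neither group pair overlapped, but the odd low library was not the same for both genes: low replicate 2 was nearest to high G0/G1 for MXD4 and farthest from it for MXD1. For MXD1 the gap was within counting error. Its exact Poisson intervals were 12.7 to 15.4 CPM in high replicate 2 and 11.5 to 14.0 CPM in low replicate 1.

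MXD4 had a log2 fold change of 1.06 ± 0.46 (SE; edgeR adjusted p = 0.271), with 1.90 without low replicate 2 and 0.61 without low replicate 1. DESeq2 did not call MXD4 with all libraries (adjusted p = 0.144). Low replicate 2 is the library with 1130 CPM of stromal and smooth muscle markers, and the part of those markers in the MXD4 level was not tested. For MXD1 the log2 fold change was 0.65 ± 0.48 (SE; edgeR adjusted p = 0.479), with 1.50 without low replicate 1 and 0.16 without low replicate 2. The MXD1 locus overlaps the protease gene ASPRV1 in the annotation, and reads of the overlap cannot be assigned to either with certainty.

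MXD3 (chromosome 2, 80636778 to 80641346) is the antagonist that in mouse is expressed in dividing cells during S phase, and it was lower in high G0/G1. It stood at 38.1 and 13.7 CPM in high G0/G1, against 63.2 and 69.0 CPM in low G0/G1. High replicate 1 lay between high replicate 2 and the low libraries, which were nearly level. E2F1, a transcription factor of S phase entry, was also lowest in high replicate 2, though its low libraries were less even. It had 56.0 and 11.5 CPM in high G0/G1 against 147 and 114 CPM in low G0/G1. A link between E2F1 and MXD3 was not tested. MXD3 had a log2 fold change of -1.35 ± 0.50 (SE; edgeR adjusted p = 0.222; 95% interval -2.61 to -0.09). Without high replicate 1 it was -2.28, while without high replicate 2 it was -0.79, each with 1 high G0/G1 library.

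MLXIP (chromosome 14, 30575098 to 30646275), the glucose-sensing factor of the MLX branch, stood at 94.5 and 123 CPM in high G0/G1, against 80.7 and 66.3 CPM in low G0/G1. The groups were separated by a narrow gap. Its log2 fold change was 0.57 ± 0.24 (SE; edgeR adjusted p = 0.262; 95% interval -0.04 to 1.17), and 0.36 to 0.78 with 1 library left out. Its partner MLX ran the other way, with 42.7 and 36.7 CPM in high G0/G1 against 48.2 and 52.1 CPM in low G0/G1 and a log2 fold change of -0.33 ± 0.21 (SE; edgeR adjusted p = 0.402). MLXIPL, the paralog of MLXIP known from liver as ChREBP, had 4 to 6 counts a library, too few for testing.

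**Figure D2:**
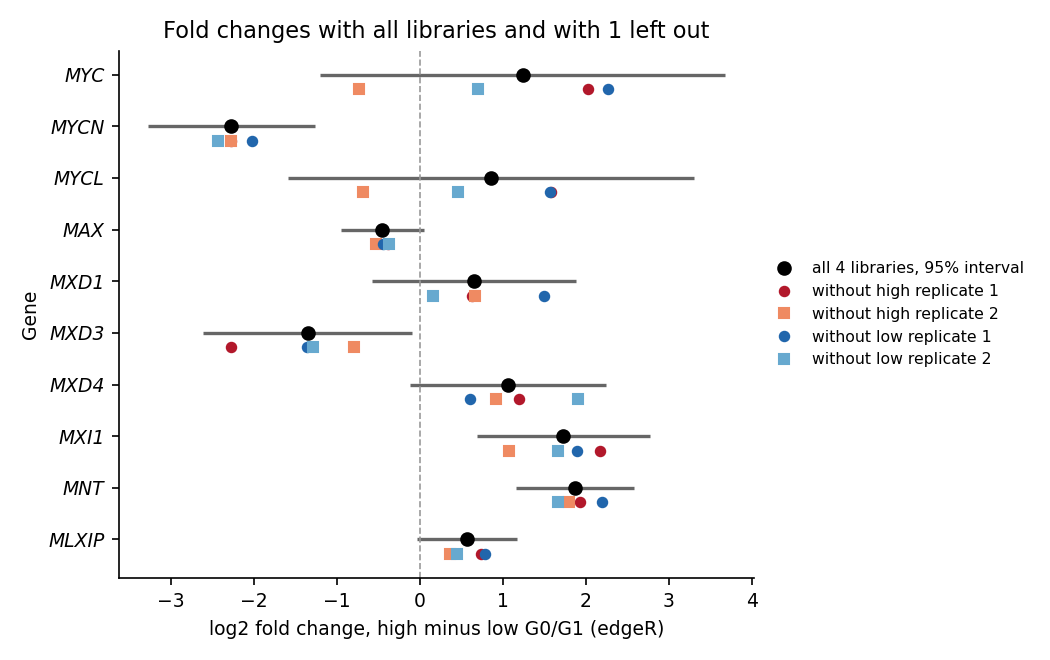
Log2 fold change of each network gene, high minus low G0/G1, from edgeR with all 4 libraries (black, with 95% interval) and with each library left out in turn (coloured). MYC and MYCL cross 0 when high replicate 2 is left out, while the values for MYCN, MAX, MXD3, MXI1, MNT and the other members keep their sign.

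Ratios within a library do not depend on scaling between libraries, and they show how the network's members shifted against each other. The counts of MXD1, MXD3, MXD4, MXI1 and MNT together came to 4.44 and 0.802 times those of MYC, MYCN and MYCL in high G0/G1, against 1.14 and 3.49 times in low G0/G1. The lowest ratio and the highest were both high G0/G1 libraries. The difference of the log2 ratios was -0.08, with means of 0.92 ± 1.75 in high G0/G1 and 0.999 ± 1.14 in low G0/G1 (SD, n = 2 each). MYC made up 80.0% to 98.8% of the counts of its family, so this ratio follows MYC.

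Ratios to MAX and within the antagonists separated the groups. Each set members that were higher in high G0/G1 over MAX or MXD3, which were lower. Their separation therefore follows from the fold changes above and is no separate result. MNT had 0.451 and 0.447 times the counts of MAX in high G0/G1, against 0.109 and 0.0720 times in low G0/G1. MXI1 had 0.467 and 0.896 times the counts of MAX in high G0/G1, against 0.170 and 0.138 times in low G0/G1. The counts of MXD1, MXD4, MXI1 and MNT together were 3.89 and 15.0 times those of MXD3 in high G0/G1, against 0.969 and 1.14 times in low G0/G1. These ratios are of counts, not corrected for transcript length, so only their differences between libraries can be read.

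Genes known to be activated by MYC in other cells, most of them for ribosome assembly, translation and nucleotide synthesis, were mostly lower in high G0/G1. Of 50 tested, 44 were lower and 6 higher, with a median log2 fold change of -0.58 against -0.01 for all genes tested. Both high G0/G1 libraries lay below both low ones for 33 of the 50 and above them for 2, where the background was 29.8% and 26.8%. By edgeR 0 passed after adjustment. At an unadjusted p under 0.05, 20 were lower and 1 higher, where the background was 10.8% and 9.92%. DESeq2 called 6 lower and 1 higher, against 5.05% and 5.34% of all genes tested. The median was -0.33 without low replicate 1.

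Their summed level was 7087 and 6267 CPM in high G0/G1, against 10208 and 8272 CPM in low G0/G1. This sum, in which the most abundant genes weigh most, separated the groups where MYC did not, though not each of its genes did. High replicate 2, the library with the most MYC, had the least of this sum. RANBP1, a cofactor of nuclear transport, averaged 71.0 ± 20.2 CPM in high G0/G1 and 174 ± 16.6 CPM in low G0/G1 (SD, n = 2 each), and its log2 fold change was -1.29 ± 0.27 (SE). EIF4A1, the helicase of translation initiation, averaged 290 ± 47.2 CPM in high G0/G1 and 611 ± 93.9 CPM in low G0/G1, and PA2G4, a growth-linked RNA-binding protein, had a log2 fold change of -1.02 ± 0.25. The member with the smallest p was higher: PPAT, the enzyme of the first committed step of purine synthesis, stood at 82.9 and 120 CPM in high G0/G1 against 38.9 and 30.5 CPM in low G0/G1. All 4 missed edgeR's threshold with all libraries (adjusted p from 0.148 to 0.169) and were called by DESeq2.

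**Figure D3:**
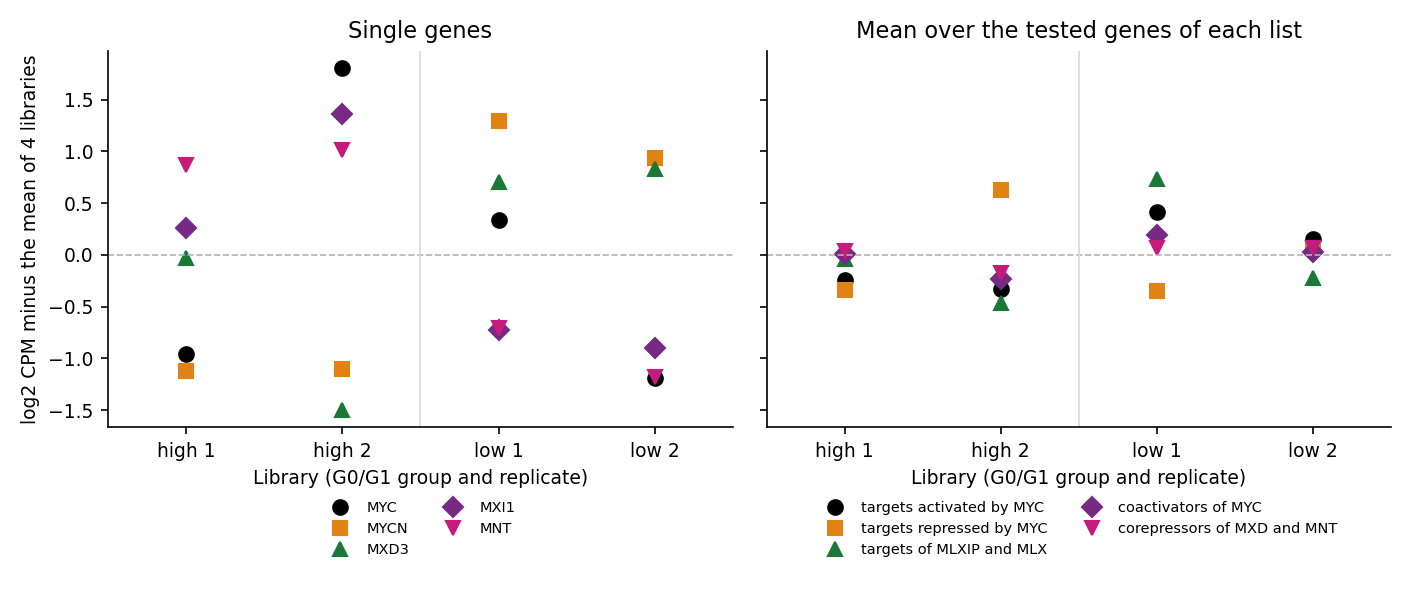
Log2 CPM in each library minus the mean over the 4 libraries, for 5 network genes (left) and as the mean over the tested genes of 5 lists (right). MYC is highest in high replicate 2, at 1.81 above its mean, while the genes known to be activated by MYC are at -0.33 there and highest in low replicate 1, at 0.42.

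Genes known to be repressed by MYC had 8 of 12 tested members higher and 4 lower in high G0/G1. Their median log2 fold change was 0.46, against -0.01 for all genes tested. Averaged over the list, log2 CPM minus the mean of the 4 libraries overlapped between groups. It was -0.34 and 0.62 in high G0/G1 against -0.35 and 0.06 in low G0/G1, so only high replicate 2 stood above both low libraries. By edgeR 0 passed, with 2 higher and 0 lower at an unadjusted p under 0.05, where the background was 9.92% and 10.8%. DESeq2 called 1, CDKN1B, which was higher, where it called 5.34% of all genes tested higher. Both high G0/G1 libraries lay above both low ones for 4 of the 12, namely CDKN1A, CDKN1B, the differentiation-linked gene NDRG2 and the ferritin heavy chain gene FTH1, a share close to the 26.8% of all genes tested. NDRG2 stood at 210 and 278 CPM in high G0/G1 against 142 and 169 CPM in low G0/G1. Of the 4 that were lower, the collagen gene COL1A2 had 23.7 and 25.3 CPM in high G0/G1 against 9.78 and 454 CPM in low G0/G1, with the high value in the library rich in stromal markers, and PDGFRB is itself a stromal marker. The matrix glycoprotein gene THBS1 had another order, with 95.1 and 426 CPM in high G0/G1 against 833 and 74.5 CPM in low G0/G1, lowest in the library rich in stromal markers. The fourth was the cyclin gene CCND1, with 0.201 and 0.667 CPM in high G0/G1 against 0.0627 and 3.29 CPM in low G0/G1. These 4 genes were chosen after their values were seen, and the part of stromal cells in them was not tested.

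Targets of MLXIP and MLX split within the list, with 4 of 9 higher and 5 lower and a median of -0.21. TXNIP and ARRDC4, the arrestin-domain genes best known as MLXIP targets, differed. ARRDC4 stood at 185 and 167 CPM in high G0/G1 against 548 and 341 CPM in low G0/G1, with a log2 fold change of -1.34 ± 0.30 (SE; edgeR adjusted p = 0.163). TXNIP, an inhibitor of thioredoxin and of glucose uptake that was chosen after its values were seen, overlapped between groups, at 533 and 356 CPM in high G0/G1 against 393 and 240 CPM in low G0/G1. Their relative ARRDC3 was higher, with 594 and 621 CPM in high G0/G1 against 203 and 126 CPM in low G0/G1 (log2 fold change 1.88 ± 0.30, edgeR adjusted p = 0.132). The glucose transporter gene SLC2A1 (-1.96 ± 0.48) and PFKFB3 (-1.98 ± 0.50), which makes an activator of glycolysis, were lower. DESeq2 called 4 of the 9 lower, the fourth being the hexokinase gene HK2, named after its values were seen, and ARRDC3 higher, where it called 5.05% of all genes lower and 5.34% higher.

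Cofactors of both sides of the network lay in both directions. Of 15 coactivators of MYC, 8 were lower and 7 higher in high G0/G1, with a median log2 fold change of -0.37. RUVBL1, an ATPase of chromatin complexes that MYC binds, averaged 62.4 ± 20.3 CPM in high G0/G1 and 153 ± 23.1 CPM in low G0/G1 (SD, n = 2 each), and the acetyltransferase gene KAT2A had a log2 fold change of -1.26 ± 0.32 (SE). The acetyltransferase gene CREBBP averaged 226 ± 15.6 CPM in high G0/G1 and 131 ± 6.92 CPM in low G0/G1. DESeq2 called 2 members of the list higher and 2 lower, against 5.34% and 5.05% of all genes tested. EdgeR called 0, with 2 higher and 5 lower at an unadjusted p under 0.05, where the background was 9.92% and 10.8%.

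Of 12 corepressor genes of MXD and MNT, 8 were lower and 4 higher, with a median of -0.30. SAP18, a subunit of the SIN3 complex, averaged 64.7 ± 1.85 CPM in high G0/G1 and 96.1 ± 3.48 CPM in low G0/G1 (SD, n = 2 each), and the deacetylase gene HDAC1 had 85.0 and 49.4 CPM in high G0/G1 against 105 and 114 CPM in low G0/G1. RBBP4, a histone-binding subunit, had a log2 fold change of -0.55 ± 0.23 (SE). EdgeR and DESeq2 called 0 of these 12, where DESeq2 called 5.34% of all genes tested higher and 5.05% lower. By edgeR 1 was higher and 1 lower at an unadjusted p under 0.05, where the background was 9.92% and 10.8%.

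Genes that control the stability of MYC protein had 5 of 16 tested members higher and 11 lower, with a median of -0.04. AURKA, a mitotic kinase that shields MYCN protein from breakdown in human neuroblastoma cells, stood at 26.9 and 5.65 CPM in high G0/G1 against 69.8 and 61.9 CPM in low G0/G1, and DESeq2 called it, as the only member of the list (adjusted p = 0.0330). SKP2, a ubiquitin ligase subunit that targets MYC, had 15.2 and 6.81 CPM in high G0/G1 against 27.02 and 26.1 CPM in low G0/G1. The kinase gene PIM1 was higher, at 46.0 and 72.2 CPM in high G0/G1 against 36.7 and 18.6 CPM in low G0/G1. EdgeR called 0 of the 16, and 1 was higher and 3 lower at an unadjusted p under 0.05, where the background was 9.92% and 10.8%. Over all genes tested DESeq2 called 5.34% higher and 5.05% lower.

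Among the remaining network factors, ZBTB17, the zinc-finger protein through which MYC represses genes, stood at 43.8 and 62.9 CPM in high G0/G1 against 36.9 and 38.9 CPM in low G0/G1, with a log2 fold change of 0.49 ± 0.25 (SE; edgeR adjusted p = 0.325). MGA, a MAX partner with a T-box domain, overlapped between groups, at 59.8 and 47.6 CPM in high G0/G1 against 51.9 and 42.7 CPM in low G0/G1. Of the 3 tested genes of this list, MLX included, 0 had an unadjusted p under 0.05 by edgeR and DESeq2 called 0.

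**Figure D4:**
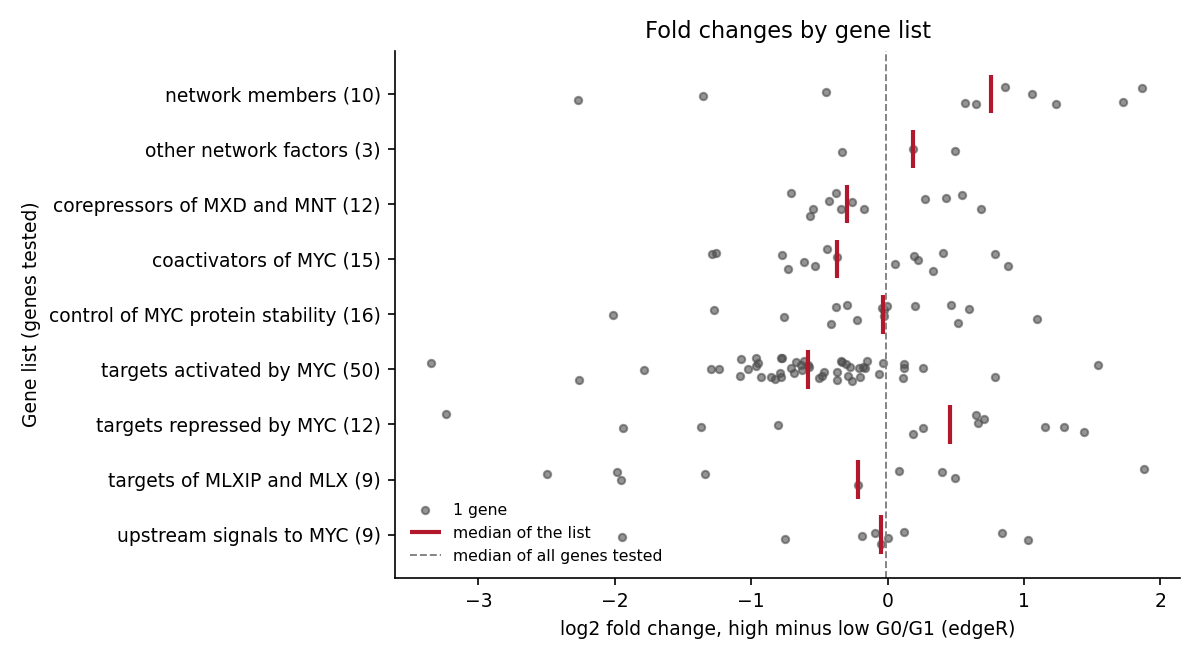
Log2 fold change, high minus low G0/G1, from edgeR for each tested gene (points) of the network and of 8 related lists, with the median of each list (red) and of all genes tested (dashed line). The genes known to be activated by MYC lie mostly left of 0, with a median of -0.58, and the network members span -2.27 to 1.87.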

How the data were processed

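RNA-seq was measured in 4 libraries of porcine granulosa cells. The authors deposited raw read counts per gene symbol, 1 column per library, and all 4 columns were matched to samples by title. Reads were aligned with HISAT2 to Sscrofa11.1, per the submitters' processing notes, while the sources used here do not give the counter, annotation release or strand setting. Replicate numbers follow the listing order and pair nothing. Library totals of 27442850 to 32674921 counts put the limit of a count of 0, taken as 3 counts, at 0.0918 to 0.109 CPM before scaling, for counting error only.

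The 2 high and 2 low G0/G1 libraries were compared in 1 fit by edgeR 4.0.16 (R 4.3.3). It used filterByExpr (minimum count 10, minimum total 15), TMM scaling, and glmQLFit and glmQLFTest without covariates. Adjustment was by Benjamini-Hochberg over 14352 genes, and calls were made at 0.05. A standard error is the size of the log2 fold change divided by the square root of F, and 95% intervals use the residual and prior degrees of freedom. CPM values use scaled library sizes, and centred log2 CPM a prior count of 2. Alternatives were DESeq2 1.42.0, limma-voom 3.58.1, edgeR's likelihood ratio test, other scalings and filters, and each library left out. A fit with 1 library left out has 1 library in that group, so its p-values and calls take no spread from that group. Tests were checked on simulated counts.

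The members and gene lists were chosen with earlier results of these data known. Named genes are the 10 members, up to 4 per list by smallest p among those averaging at least 1 log2 CPM, and the 3 genes closest to MYC and to MXI1 over the 4 libraries. Of the 10 members, 10 matched a RefSeq symbol of Sscrofa11.1, which gave coordinates. The alternatives with DESeq2 and a library left out, the counts of separated members without a library, and the comparison of library orders were chosen after seeing the data. Some genes that this rule names are not reported here.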

Additional observations from a re-analysis of the deposited data

How the results depend on the processing

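With all 4 libraries edgeR's quasi-likelihood test called 0 genes in either direction, as it did with other scalings and with a filter of 50 counts in 2 libraries, and as limma-voom did. DESeq2 called 767 higher and 725 lower, the likelihood ratio test 557 and 534, and edgeR without a filter on low counts 2 and 3. With 1 library left out the quasi-likelihood test called 0 to 363 higher and 0 to 591 lower, the highest counts without high replicate 1, and the cause was not tested. Members at an unadjusted p under 0.05 then numbered 2 to 4 higher and 1 to 2 lower, and DESeq2 called 1 to 3 members higher and 0 to 2 lower, where with all libraries it called 2 and 1. Over all genes DESeq2's share of calls then ran from 1.35% to 6.51% higher and 0.76% to 8.36% lower, so the members' counts are not comparable between omissions. Members whose remaining high G0/G1 libraries lay above the remaining low ones numbered 5 to 7, and those below numbered 3 to 4. The share of all genes went up to between 35.6% and 40.1% above and between 38.2% and 42.4% below. Each such comparison has only 1 library in the group that lost one.

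Without high replicate 2 the log2 fold change reversed for MYC and MYCL and for the 3 genes closest to MYC in pattern. With 1 library left out it ran from -0.73 to 2.27 for MYC by edgeR and -0.71 to 2.25 by DESeq2, and from -0.68 to 1.58 and -0.67 to 1.63 for MYCL. By edgeR it ran from -0.57 to 2.40 for RGS4, -0.40 to 2.23 for FGD6 and -0.90 to 1.71 for LOC110262083, with the lowest value of each without high replicate 2. The difference of the log2 ratio of antagonist to activator counts ran from -1.32 to 1.15 with 1 library left out. Among the members' log2 fold changes under the other tools, scalings, filters and omissions, 108 kept their direction and missed the adjusted threshold as before, 9 passed it in the same direction and 2 reversed. Scalings moved the median of all genes by less than 0.1 on the log2 scale. A ratio per kilobase was not run because no transcript length was at hand. No paired analysis was run because the title codes are not described as replicate numbers. A high and a low library share the letter W in their codes, and the other high and low library share a digit. What the codes mean is not stated, so a common source across groups cannot be told. Depth limits MYCL, at 9 to 42 counts a library.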

Other observations

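Signals upstream of MYC were mixed. In high G0/G1 cells 4 of the 9 tested genes were above and 5 below low G0/G1, with a median log2 fold change of -0.05, and edgeR called 0, with 2 higher and 2 lower at an unadjusted p under 0.05. TCF7L2, a transcription factor of Wnt signalling, stood at 41.4 and 62.0 CPM in high G0/G1 against 27.2 and 23.5 CPM in low G0/G1, and STAT3, a factor of cytokine signalling, at 130 and 179 CPM against 96.6 and 76.3 CPM. CTCF, which binds insulators, had 98.7 and 60.3 CPM in high G0/G1 against 129 and 140 CPM in low G0/G1. DESeq2 called TCF7L2 higher (adjusted p = 0.0394) and E2F1 lower (adjusted p = 0.0415). Over all genes tested it called 5.34% higher and 5.05% lower. The background at an unadjusted p under 0.05 by edgeR was 9.92% higher and 10.8% lower.

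The genes closest to MYC over the 4 libraries, by the root mean square difference of centred log2 CPM, were RGS4, a regulator of G protein signalling, at 0.145, FGD6, an exchange factor for small GTPases, at 0.146, and LOC110262083 at 0.227. RGS4 stood at 56.1 and 316 CPM in high G0/G1 against 130 and 37.3 CPM in low G0/G1. Closest to MXI1 were the Wnt ligand gene WNT9A at 0.0620, the DNA damage kinase gene ATM at 0.0783 and TDRP at 0.0833. ATM stood at 94.1 and 234 CPM in high G0/G1 against 50.8 and 46.9 CPM in low G0/G1. With 4 libraries such likeness is a description.

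MYC ordered the libraries as high replicate 2, low replicate 1, high replicate 1, low replicate 2, an order shared by 2.79% of the other genes tested. Of the 50 genes known to be activated by MYC 1 had this order, BZW2, and of the 12 known to be repressed 2 had it. These were NDRG1, a stress-induced gene with 64.0 and 258 CPM in high G0/G1 against 90.0 and 41.5 CPM in low G0/G1, and the growth arrest gene GADD45A, with 86.2 and 209 CPM against 99.3 and 33.3 CPM. NDRG1, GADD45A and BZW2 were chosen after their values were seen. MNT, MXI1 and MLXIP shared an order, high replicate 2, high replicate 1, low replicate 1, low replicate 2. Of the tested genes other than MNT, 7.41% had it.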
